A study of Drosophila melanogaster with 2 samples.

Results

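Coding exons of Drosophila melanogaster were examined at chromatin regions that fell short of the authors' reproducibility threshold for the tagged protein CG18476. A member is a region of the pooled list on 2L, 2R, 3L, 3R or X that is not an entry of the thresholded set, with its summit in annotated coding sequence and more than 500 bp from any transcription start site (TSS). There were 1857 members among 29459 pooled regions on these arms, or 6.30%, and among 30000 in the whole list. They were chosen by their pooled signal, through their absence from the thresholded set, and by position, so these values are given as a description without a test. The same holds for the replicates' signals, from which the threshold was derived.

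The study is a chromatin immunoprecipitation with sequencing of whole embryos aged 0 to 24 h, males and females together. The embryos came from 1 transgenic line that stably expresses CG18476 fused at its carboxyl end to green fluorescent protein (GFP), and an antibody against GFP was used. There is 1 group of 2 biological replicates, whose chromatin was sonicated to 200 to 800 bp. No library from embryos without the tag was used, and cell types were not separated. The lists give no depth, and the signal of a region is the authors' value in their own units.

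A sequence-specific factor typically binds short DNA words at promoters and enhancers, and most fly enhancers lie in introns and between genes. Coding exons are dense in codons, richer in G+C than introns, and are covered by RNA polymerase when a gene is transcribed. A list of peaks and background regions, made as input for a reproducibility analysis, holds weak regions on purpose.

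The summit sequences of some strong members are given first, because they differ in base composition. Each is the summit base with 50 bp on either side, in the direction of the gene (dm6 coordinates, RefSeq Release 6 sequence), with capitals for any of 12 motifs that were searched on both strands. The members in CG4822 (2L:117907-118007), mod(mdg4) (3R:21375785-21375885), mira (3R:19934444-19934544), plh (3R:4986667-4986767) and chrb (3L:11494353-11494453) are among the 20 with the highest signal.
CG4822: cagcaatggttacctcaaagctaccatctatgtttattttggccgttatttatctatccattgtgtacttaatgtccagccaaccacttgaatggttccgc
mod(mdg4): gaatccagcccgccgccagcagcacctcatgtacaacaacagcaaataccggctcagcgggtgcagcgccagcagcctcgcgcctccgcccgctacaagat
mira: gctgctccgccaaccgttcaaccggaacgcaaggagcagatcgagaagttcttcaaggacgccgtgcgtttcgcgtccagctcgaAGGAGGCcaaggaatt
plh: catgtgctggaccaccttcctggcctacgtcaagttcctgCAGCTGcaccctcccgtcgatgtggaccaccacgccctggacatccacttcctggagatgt
chrb: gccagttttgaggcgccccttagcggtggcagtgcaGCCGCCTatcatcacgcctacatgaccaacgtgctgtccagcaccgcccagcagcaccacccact
The G+C content of these windows was 40.6% in CG4822, 64.4% in mod(mdg4), 58.4% in mira, 60.4% in plh and 63.4% in chrb. Among the 20 it ran from 35.64% in kon to 67.33% in CG13293. The capitals mark a CTCF core match in mira and chrb and a CAGCTG E-box in plh, and the other windows hold none of the 12 motifs.

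The word CAGCAGCAG, the unit of opa repeats, was searched on both strands without regard to the reading frame. It was in 81 members, or 4.36%, against 3.09% of 162040 coding windows of the same length. It is shown in capitals, on examples chosen after their values were seen, for how (3R:22043086-22043186), corto (3R:5085701-5085801), SoxN (2L:8826712-8826812) and repo (3R:18238377-18238477), which encode an RNA-binding protein, a chromatin factor, a neural Sox factor and a glial homeodomain factor.
how: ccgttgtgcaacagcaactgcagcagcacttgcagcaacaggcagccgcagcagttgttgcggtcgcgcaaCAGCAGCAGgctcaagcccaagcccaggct
corto: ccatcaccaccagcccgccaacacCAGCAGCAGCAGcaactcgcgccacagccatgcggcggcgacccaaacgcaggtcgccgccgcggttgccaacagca
SoxN: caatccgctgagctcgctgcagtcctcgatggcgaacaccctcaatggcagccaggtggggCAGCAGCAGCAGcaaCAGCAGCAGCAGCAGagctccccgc
repo: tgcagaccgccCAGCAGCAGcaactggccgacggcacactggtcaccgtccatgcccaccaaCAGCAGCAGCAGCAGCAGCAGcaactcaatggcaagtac
Their signals were 35.98 in how, 33.07 in corto, 30.97 in SoxN and 30.6 in repo.

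Coding exons held fewer subthreshold regions than other sequence away from TSSs, and almost no thresholded peak. Members made up 9.83% of the 18893 subthreshold regions more than 500 bp from a TSS, while coding sequence made up 16.0% of such bases. Their density was 10.1 per 100 kb of eligible coding sequence, against 19.9 in introns, 13.98 between genes, 20.3 in other exons and 36.6 within 500 bp of a TSS. Of all 1872 coding exon regions, 15 were thresholded (0.801%), against 11.7% of intron regions and 8.78% of intergenic regions. These counts follow from the rule and carry no test.

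The signals of members were low within the subthreshold range. They ran from 14.53 to 53.72 with a median of 18.1, and the medians were 21.0 in introns, 20.1 between genes and 24.5 at promoters. Of the members, 65.6% had a signal under 20, 87 exceeded 30 and 13 exceeded 40. The authors' -log10 q value had a median of 0.125 and a maximum of 2.01, and 34 members reached 1. The best pooled rank of a member was 4683 of 30000. Every member was 430 bp wide, and 100 members (5.39%) overlapped another member, so neighbouring members can rest on the same fragments.

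**Figure D1:**
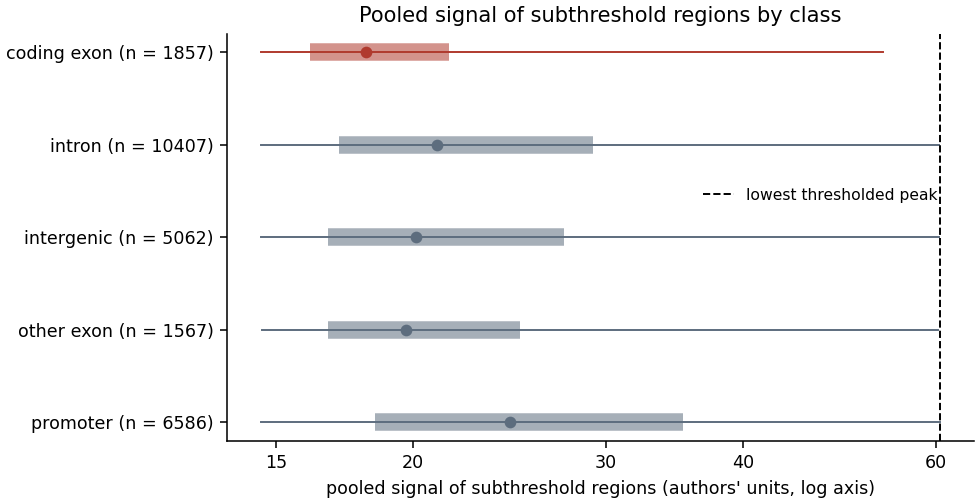
Pooled signal (log axis, authors' units) of subthreshold regions in 5 classes, with a thin line from the lowest to the highest value, a thick bar for the middle quartiles and a point for the median. Members in coding exons had a median of 18.1 and stopped at 53.72, below the lowest thresholded signal of 60.58, while the highest subthreshold region of any class, at a promoter, had 60.56.

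The threshold separated the pooled regions by signal without overlap. The lowest thresholded peak of the whole list had a signal of 60.58 and the highest subthreshold region 60.56. The 3 coding exon peaks just inside were in l(3)mbn (64.58), aralar1 (63.62) and mtd (62.77), and the 3 members just outside were in CG4822 (53.72), kon (52.62) and mod(mdg4) (52.38). No coding exon region lay between 53.72 and 62.77. CG42327 held 2 of the 15 thresholded coding exon peaks, as overlapping entries with their own summits. The stronger, which was the highest of the 15, had a signal of 717.0, with 358.4 in replicate 1 and 355.7 in replicate 2.

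The 20 strongest members lay in genes of many roles. The highest, in CG4822 (2L:117742-118171, exon 8 of 9, signal 53.72), had 19.83 in replicate 1 and 34.28 in replicate 2. The member in kon, which encodes a transmembrane protein of muscle attachment (2L:18491732-18492161, exon 7 of 11), had 52.62, with 25.82 and 24.14. The member in mod(mdg4), whose product is part of insulator complexes (3R:21375620-21376049, exon 3 of 4), had 52.38, with 14.79 and 38.07. Replicate 2 was the higher in CG4822 and mod(mdg4), and the replicates were close in kon.

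Synaptic, RNA and cell polarity genes followed. The member in stnB, which acts in synaptic vesicle endocytosis (X:22985770-22986199), had 50.55, with 23.03 in replicate 1 and 26.29 in replicate 2. The member in the first coding exon of DCP2, the mRNA decapping enzyme (3L:15825340-15825769), had 49.87, with 18.89 and 35.74. CG13293 (49.81) had 13.39 and 36.58, and CG45095 (47.6) had 30.71 and 17.62, so the replicates ranked these genes in opposite order. The member in mira, the neuroblast adaptor gene, had 46.62, with 22.16 and 21.77. The member in Taf4, a subunit of the general transcription factor TFIID, had 43.54, with 20.44 and 19.29.

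Replicate 1 held no match for the member in plh (46.14), which had 32.17 in replicate 2. Members in chrb (40.82), Lapsyn (40.71) and Caper, a splicing factor gene (40.64), also exceeded 40. Atg18a, an autophagy gene (39.62), and par-1, a polarity kinase gene (38.99), were each missed by a replicate, the first by replicate 2 and the second by replicate 1. The remaining members of the 20 were in Tim17b1, a mitochondrial translocase gene (38.86), Mkp3, a MAP kinase phosphatase gene (38.22), GstO3 (37.77), Obsc, which encodes the muscle protein obscurin (37.72), and l(1)G0196 (37.65). Of these 20, 18 were matched in replicate 1 and 19 in replicate 2. The lowest members, in Spn43Ad (14.54), sick (14.54) and Ir75c (14.53), were matched in no replicate, in replicate 2 alone and in replicate 1 alone.

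Members were recovered less often by both replicates than regions elsewhere. A region counted as matched where an entry of a replicate's own list shared 0.5 or more of the length of each. Of the members, 40.5% (95% interval 38.3 to 42.8, exact Clopper-Pearson) were matched in replicate 1 and 64.1% (61.9 to 66.3) in replicate 2. Both replicates matched 19.8% (18.0 to 21.7) of members, against 39.7% of subthreshold intron regions and 36.7% of intergenic regions. Neither replicate matched 15.1% of members, against 8.71% of intron regions and 10.2% of intergenic regions. Members were also weaker, with a median pooled signal of 18.1, against 21.0 in introns and 20.1 between genes. Recovery was not compared at equal signal. Intervals cover the counting of regions only, and regions are not replicates of a condition.

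The share matched in both moved with the signal. Ordered by pooled signal in 5 groups of equal size, it was 2.15% in the weakest and 55.1% in the strongest. Among the 367 members matched in both, Spearman's rho between the replicates' signals was 0.112, against 0.340 in intron regions, as a description across regions. The median ratio of replicate 2 to replicate 1 was 1.28. A region could enter only where each list held it, which limits the range of weak signals. The threshold limits the range of strong ones, since members lay below a pooled signal of 60.58. The replicates' signals summed to about the pooled signal, with a median ratio of 1.026, so this limit also bears on rho.

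**Figure D2:**
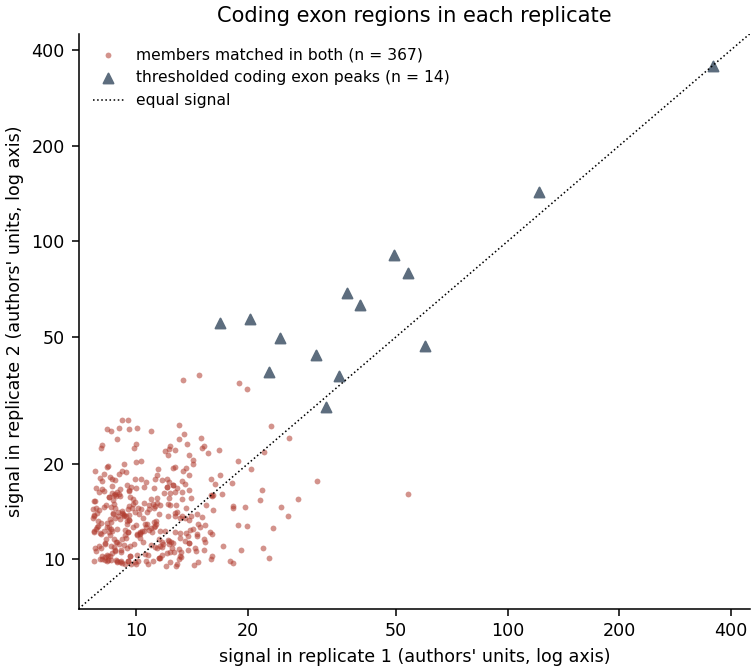
Signal of coding exon regions in replicate 1 (x axis) and replicate 2 (y axis), both log axes in the authors' units, with red points for 367 members matched in both and grey triangles for 14 of the 15 thresholded coding exon peaks. Members form a cloud with little order between the replicates, while the thresholded peaks reach 358.4 and 355.7, and their median ratio of replicate 2 to replicate 1 was 1.53, against 1.28 in members. The threshold limits the pooled signal of members from above and that of the peaks from below.

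The lists of the 2 replicates differed in how many coding exon regions they held. Outside thresholded peaks, replicate 1 had 1755 coding exon regions (7.17% of 24486) and replicate 2 had 2729 (11.0% of 24752). Intron regions made up 40.8% in replicate 1 and 39.97% in replicate 2. With 1 library each, this difference has no test.

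Members lay more densely near the start of genes. Within 1000 bp of a TSS the density was 14.2 members per 100 kb (95% interval 13.1 to 15.3, exact Poisson), and beyond 5000 bp it was 6.59 (5.74 to 7.52). The first coding exon had 14.5 per 100 kb, internal exons 9.08, last exons 10.6 and single exons 10.9. Along the coding sequence, the opening 20% had 14.3 per 100 kb, the stretch from 40 to 60% had 8.34, and the closing 20% had 11.2.

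Long exons held few members. Coding exons over 2000 bp had 4.49 members per 100 kb (3.78 to 5.30), against 13.1 (11.99 to 14.3) in exons of over 200 and up to 500 bp. Coding sequence within some transcripts of a gene only had 11.1 per 100 kb and sequence in all of its transcripts 9.96, with overlapping intervals. The arms ranged from 8.90 on X to 11.2 on 3R. Place, exon length and base composition vary together along genes, and their parts were not separated.

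**Figure D3:**
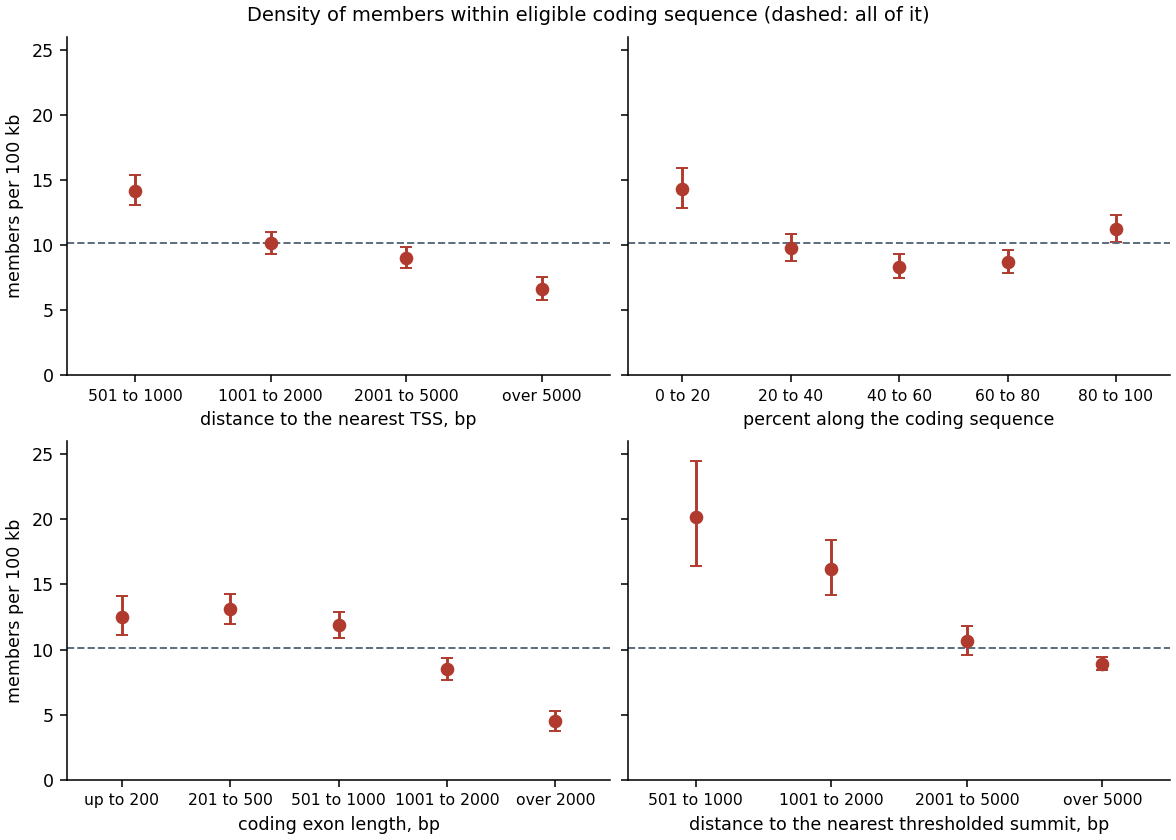
Members per 100 kb of eligible coding sequence (y axis, points with exact Poisson 95% intervals) by distance to the nearest TSS, place along the coding sequence, exon length and distance to the nearest thresholded summit, with a dashed line for all eligible coding sequence at 10.1. Density was 14.2 within 1000 bp of a TSS and 4.49 in exons over 2000 bp.

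The distance to thresholded peaks was compared between members and other subthreshold regions. The rule used the positions of those peaks only to remove identical entries, but the classes hold unlike numbers of them. More than 500 bp from a TSS, 15 lay in coding exons, 1373 in introns and 487 between genes. The shares of bases near a thresholded summit were not compared between classes, so the odds ratios also carry where thresholded peaks lie. A thresholded summit lay within 1000 bp of 107 of 1857 members (5.76%, 4.75 to 6.92), against 885 of 10407 intron regions (8.50%, 7.98 to 9.06). This gave an odds ratio of 0.658 (95% interval 0.530 to 0.810), with an adjusted p of 7.63e-05 by a two-sided Fisher's exact test over regions. Of 5062 intergenic regions, 271 (5.35%) had such a summit, and members set against them gave 1.08 (0.850 to 1.37), with an adjusted p of 0.512 by Fisher's exact test. This comparison changed side with the setting: it gave 0.211 for regions more than 1000 bp from a TSS (Fisher's exact test, adjusted p = 2.73e-11) and 1.605 without regions overlapping a thresholded peak (Fisher's exact test, adjusted p = 0.000621). In the lists of replicate 2 and replicate 1 it gave 1.462 and 1.661 (Fisher's exact test, adjusted p = 0.00246 and 0.00014). These p-values measure the counting of regions, not the spread between embryo samples. The difference from introns was lost once regions overlapping a thresholded peak were left out of both classes (odds ratio 0.998, Fisher's exact test, adjusted p = 1.0). In the lists of replicate 2 and replicate 1, taken outside thresholded peaks, the odds ratios were 1.026 and 1.105. Within coding sequence, members were denser near thresholded summits. The density was 20.18 per 100 kb (16.45 to 24.49) over 500 and up to 1000 bp away. It was 16.17 (14.15 to 18.41) over 1000 and up to 2000 bp and 8.925 (8.418 to 9.455) beyond 5000 bp. Up to 500 bp it was 10.75 (3.491 to 25.09), from 5 members. Distance to a TSS was not separated from these values.

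Most members near a thresholded summit were also near a TSS. Over 500 and up to 1000 bp from a TSS, 94 of 624 members (15.1%) had a thresholded summit within 1000 bp, against 15.4% of intron regions and 8.82% of intergenic regions. Over 1000 and up to 2000 bp the shares were 1.12% (6 of 535 members), 10.5% and 6.94%. More than 2000 bp from a TSS they were 1.00% (7 of 698 members), 6.53% and 4.20%, with an odds ratio of 0.145 (0.0578 to 0.303) against introns (Fisher's exact test, adjusted p = 9.41e-12). Regions overlapping a thresholded peak were kept in all of these shares, 5 members among them. Outside thresholded peaks lay 1852 of the 1857 members and 10078 of the 10407 intron regions. The shares by TSS distance without overlapping regions were not tested.

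Members were G+C-rich. The summit windows held 55.9% ± 8.56 G+C (SD over 1857 members), against 52.8% ± 7.57 in eligible coding windows and 36.6% in subthreshold intron regions. Coding sequence over 60% G+C had 20.6 members per 100 kb (19.0 to 22.2), and it held 640 members. Sequence of 50 to 55% had 6.40, and sequence of up to 40% had 9.06, so the density was lowest at intermediate composition.

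Within the same exon the G+C difference was small. In 1145 members with room for a second window 200 bp away, the summit had 58.4% and the flank 57.4%, with a median difference of 0.990 points. The summit was the higher in 602 members and the lower in 481 (exact sign test, two-sided, p = 0.000262). In the coding exon regions of replicate 1's own list the median difference was 0.0 and the call was lost (exact sign test, p = 0.750), while in replicate 2's list it was 0.990 (exact sign test, p = 0.000856). With the flank 400 bp away the median difference was 1.98 points (797 members, exact sign test, p = 4.19e-10). The p-values of the sign test measure the counting of regions, not the spread between embryo samples. They take members as independent pairs, though 100 of the 1857 members overlap another. In 25 bp windows, over members that differ between offsets, mean G+C was 57.57% at the summit, 57.76% 50 bp to one side and 57.6% 175 bp to the other.

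The replicates' lists also differed by composition. In sequence over 60% G+C, replicate 1 had 14.7 coding exon regions per 100 kb (13.4 to 16.1) and replicate 2 had 26.2 (24.4 to 28.0). In sequence of up to 40% they had 11.9 and 10.6, with overlapping intervals. The part of the library in the G+C of members was not tested.

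**Figure D4:**
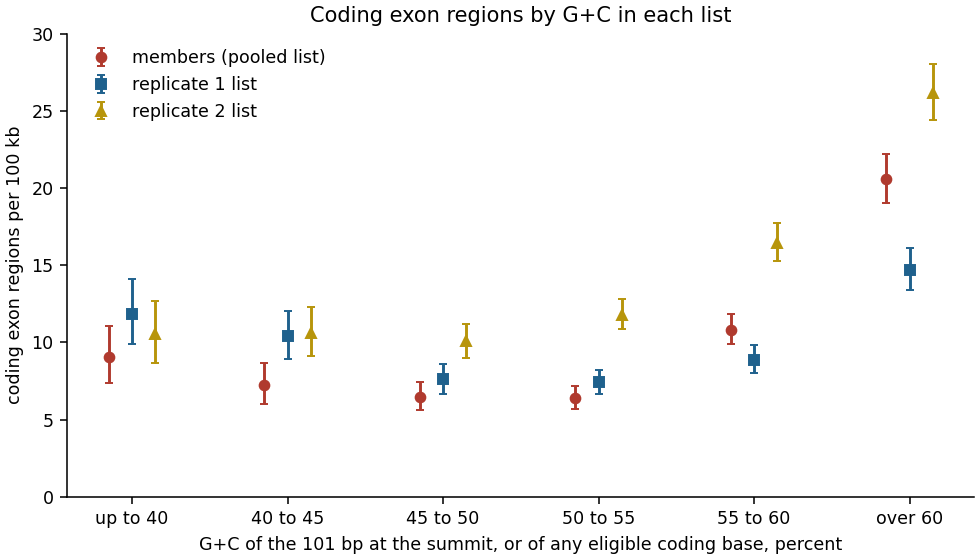
Coding exon regions per 100 kb of eligible coding sequence (y axis, exact Poisson 95% intervals) by G+C percent of the summit window (x axis), for members of the pooled list and for each replicate's own list outside thresholded peaks. Density over 60% G+C was 20.6 for members, 14.7 in replicate 1 and 26.2 in replicate 2.

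None of the 12 motifs passed the test between summit and same-exon flank (exact McNemar test, Benjamini-Hochberg over 12, smallest adjusted p = 0.609, and 0 at an unadjusted p under 0.05). Among promoter motifs, TATCGATA is the DRE element and TATAAA the TATA box. GAGAGAG is bound by GAGA factor, and simple repeats were searched as CACACACA and as a run of AAAAAAAA. The E-boxes had the letters CAGCTG or else CACGTG, and CAGGTAG is the site of the early embryonic activator Zelda. The insulator words were CGATA for BEAF-32 and, for the core of the CTCF site, AGGNGGC in either direction. TAATTA is a homeodomain word, and opa was described above. Both strands were searched, and CGATA is also part of the DRE letters. The E-box CAGCTG was in 12.8% of summits and 10.5% of flanks, with 126 members holding it at the summit alone and 100 at the flank alone. Opa was in 5.59% of summits and 4.45% of flanks. DRE was in 0 of 1145 windows at either place.

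Members were spread over many genes. Of 12317 protein-coding genes with eligible coding sequence, 1619 held at least 1 member, a background of 13.1%. By the gene with the longest coding sequence at each summit, 1412 genes had 1 member, 179 had 2, 17 had 3 and 8 had 4 or more. Genes that had a thresholded peak at a promoter had 11.7 members per 100 kb, against 9.63 in genes without one.

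Several of the genes with the most members encode chromatin or cytoskeletal proteins. The BAP chromatin remodelling subunit gene osa had 6 in 5 exons, with signals from 14.78 to 33.63, and the BTB zinc finger gene lola had 6, from 14.66 to 31.89. The genes mod(mdg4), larp, which encodes an RNA-binding protein, Alh, a chromatin factor gene, CG2186, and the cytoskeletal linkers Msp300 and shot had 4 each. Msp300 has 63.8 kb of eligible coding sequence and shot 27.8 kb, so that their density is low. JIL-1, a histone kinase gene, mtd, Caper and corto had 3 each, and in JIL-1 the lowest was 28.17. In corto, lola, larp, Caper, Msp300, JIL-1 and osa, neighbouring members had the same replicate signal, since both were matched to the same replicate region.

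Lists of related genes differed in density. The lists were chosen with earlier results known and carry no test, and their densities are set beside 10.1 per 100 kb (9.68 to 10.6) over all genes. Cytoplasmic ribosomal protein genes had 36.0 per 100 kb (13.2 to 78.3), from 6 of 59 genes or 10.2%, below the 13.1% of all genes. The members were in RpL8 (36.38), RpL19 (35.26), RpS3 (22.07), RpS24, RpS19a and RpL6. Short coding sequence gives a high density from few members, so both measures are given.

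In glycolytic enzymes and in actins and tubulins both measures were above those of all genes. Glycolytic enzyme genes had 5 of 11 genes with a member (45.5%) and 38.9 per 100 kb (12.6 to 90.9), in Hex-A (35.17), Pgi (34.0), Pgk (21.05), Eno and Pfk. Actins and tubulins had 5 of 14 genes (35.7%) and 38.0 per 100 kb (13.9 to 82.6), with Act57B highest at 27.77. The members in Act57B (2R:20944983-20945412 and 2R:20945242-20945671) overlapped each other. Some of these genes resemble one another, and how reads that fit several of them were counted is not known. Among the 928 members of highest signal, the density of actins and tubulins was 1.25 times that of all genes.

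Lists of regulatory genes had densities of 12.4 per 100 kb or more, and the intervals of 3 of the 6 include the value over all genes. Hox genes had 3 of 8 and 31.5 per 100 kb (8.58 to 80.7), an interval that includes it, in pb (19.5 and 18.21), Abd-B (17.35) and lab (15.92). Insulator and architectural protein genes had 5 of 13 and 28.0 per 100 kb (12.1 to 55.1), led by mod(mdg4) and followed by BEAF-32 (22.43), M1BP (20.3), Clamp (18.99) and su(Hw). Ecdysone and tissue transcription factors had 9 of 18 and 19.6 per 100 kb (11.4 to 31.4), led by lola (31.89) and followed by ftz-f1 (26.44), da (25.03) and Eip78C (22.69). Large transcriptional cofactors had 10 of 14 and 18.4 per 100 kb (10.9 to 29.1), led by the corepressor gro (35.67), sbb (34.72) and osa. Single genes supplied many of the members in these lists. The gene mod(mdg4) held 4 of 8 insulator members, lola 6 of 17 ecdysone and tissue factor members and osa 6 of 18 cofactor members. The intervals count each member as an independent region, also where members share a gene or overlap. Segmentation genes had 6 of 27 and 18.3 per 100 kb (7.35 to 37.7), and Polycomb and trithorax genes, which share osa and kis with the cofactors, had 6 of 23 and 12.4 (6.41 to 21.7). Both intervals include the value over all genes.

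Several of these densities differed between the lists of the replicates. Relative to all genes, Hox genes had 3.11 among members, 3.29 in replicate 1's list and 1.06 in replicate 2's list. Insulator genes had 2.76 among members, 1.46 in replicate 1 and 2.11 in replicate 2, and ecdysone and tissue factors had 1.94, 2.17 and 1.24. Ribosomal protein genes had 3.55, 7.52 and 4.03, and glycolytic enzymes 3.84, 6.51 and 3.14. All of these ratios were above 1, but their size rests on single libraries and few members.

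Mucin, neuronal, muscle and chemoreceptor genes had low densities. Mucins, secreted glycoproteins with long repeats, had 0 in 19 genes and 110.6 kb, which allows up to 3.34 per 100 kb. Neuronal genes had 3.34 per 100 kb (0.689 to 9.76), in ChAT, Dscam1 and brp, or 3 of 18 genes (16.7%). Giant cytoskeletal and muscle proteins had 5.05 (2.94 to 8.09), from 9 of 21 genes (42.9%). The share of genes with a member was thus above the 13.1% of all genes in these 2 lists, while the density was below. Chemoreceptors had 5.34 (2.44 to 10.14) from 9 of 179 genes (5.03%), an interval that just includes the 10.13 over all genes. Signalling and polarity receptors had 8 members in 5 of 24 genes (20.8%), with fz highest (27.41). Their density was 6.115 per 100 kb (2.64 to 12.05), an interval that includes the value over all genes. Extracellular matrix, cuticle, heat shock, replication and translation genes lay between 8.94 and 12.4 per 100 kb, with intervals that include the value over all genes. Histone genes had 0 in 10.42 kb, which allows up to 35.4 per 100 kb. Yolk and chorion genes had 0 in 6.519 kb, which allows up to 56.59. Both of these intervals include the value over all genes.

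**Figure D5:**
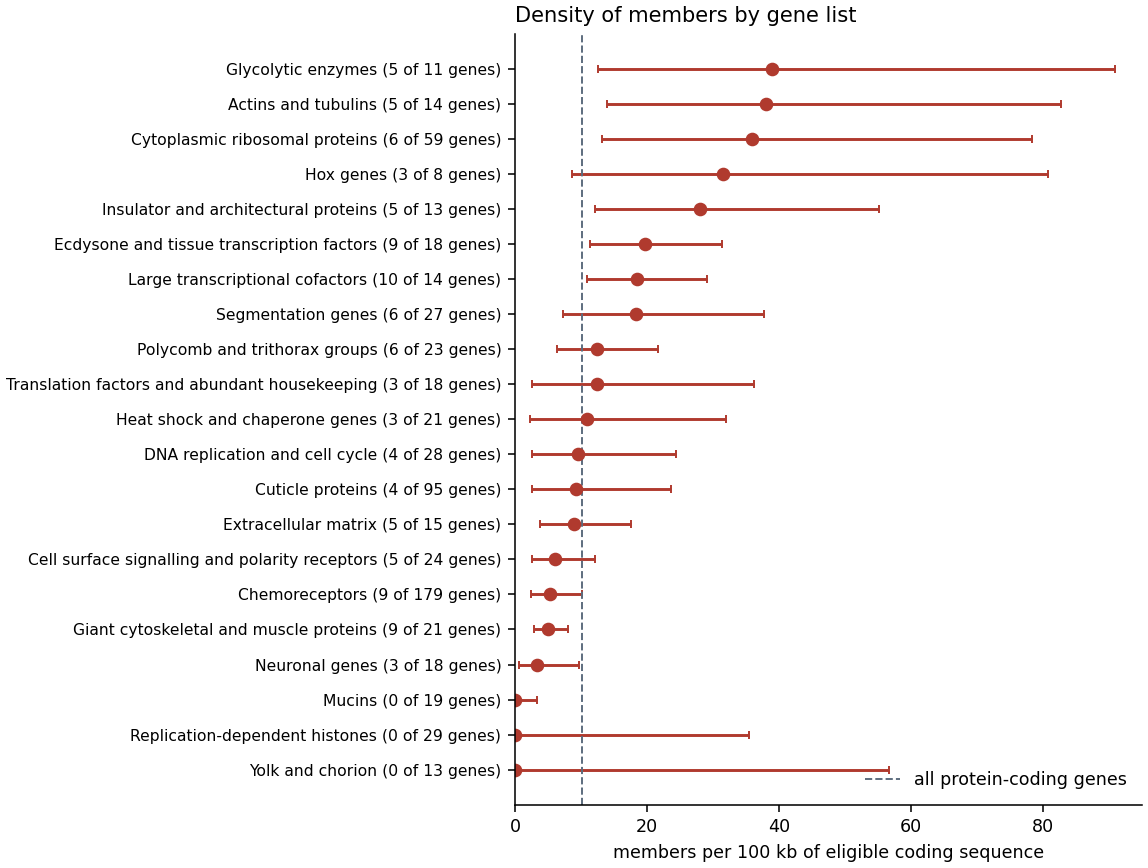
Members per 100 kb of eligible coding sequence (x axis, exact Poisson 95% intervals) for 21 gene lists, with the number of genes that hold a member, and a dashed line for all protein-coding genes at 10.1. Glycolytic enzymes stood highest at 38.9 and mucins had 0.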

How the data were processed

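Peaks were called by the authors in each replicate and in the pooled reads against a control, and a thresholded set was derived from these lists, per the file headers and README texts. No aligner, caller or version is given in the sources used here. The deposited signal of each region and its deposited -log10 q value are the authors' own. Depth is unknown. Only the dm6 lists were used, with Ensembl 115 genes and RefSeq Release 6 sequence, within whose chromosome lengths every region fell. Tests ran in SciPy 1.17.1 under Python 3.11.15, with tables in pandas 2.3.3, and were tested on simulated data.

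Members, gene lists and tests were chosen with earlier results of these data known. List patterns and the matching of synonyms were corrected after values were seen, since they caught genes outside the lists' names. 9 list symbols matched no gene on the 5 arms. Named genes were those of the 20 strongest and 3 weakest members, of the thresholded coding exon peaks, the 10 genes with most members, and up to 4 per list. Named outside this rule, after their values were seen, were Caper and corto among 17 genes with 3 members, the remaining holders in the ribosomal, glycolytic and insulator lists, and the examples of the opa word. The alternatives were other TSS distances, midpoints, the 928 members of highest signal, each replicate's list, and other windows, flanks and overlaps.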

Additional observations from a re-analysis of the deposited data

How the results depend on the processing

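The member count was 1233 with a TSS distance of 1000 bp and 928 above the median signal, and the share of genes with a member was then 8.75% and 6.94%. The odds ratio of members against introns for a thresholded summit nearby was 0.998 without regions that overlap a thresholded peak (adjusted p = 1.0, Fisher's exact test) and 0.972 within 2000 bp, and without a replicate it ranged from 1.026 to 1.105. Against intergenic regions it was 0.211 at a TSS distance of 1000 bp, 0.955 above the median signal, 1.605 without overlapping regions, 0.138 within 500 bp, 1.606 within 2000 bp and 0.231 more than 2000 bp from a TSS, and ranged from 1.462 to 1.661 without a replicate. The G+C difference ranged from 0.0 to 0.990 points without a replicate, and was 1.98 with the flank 400 bp away and 1.96 with 51 bp windows. The share matched in both replicates was 24.8% for an overlap of at least 1 bp and 10.02% for 0.8. Internal exons held 47.6% of members above the median signal, against 50.8% of all members. The cause was not tested.

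Relative to all genes, the density of actins and tubulins was 1.25 above the median signal and 1.28 in replicate 2's list, and neuronal genes had 0 above the median signal. Extracellular matrix genes had 0.234 in replicate 1's list and 0.901 in replicate 2's, replication genes 0.248 and 2.08, segmentation genes 3.005 and 1.93, and neuronal genes 0.582 and 0.225. The motif count stayed at 0 under all 10 alternatives. No paired analysis was possible because there is 1 group of samples. The unknown depth limits how weak a region can be told from background, and without an untagged control the share of members due to the tagged protein was not tested.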

Other observations

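One word was looked at after the summit sequences had been read, and it is given as a description without a test. Reading the 20 strongest members and the 15 thresholded coding exon peaks showed CCCTCG in several of them. It was then counted in 8 spellings, which ran from 5 letters to 9 and all held CCTCG or CCCTC, and all 6-mers and 8-mers were ranked in the 372 strongest members, all members and the thresholded set against a window 350 bp to one side. These rankings did not bring the word out: CCCTCG stood at place 34 of 2079 6-mers in the 372 strongest members, 172 of 2080 in all members and 360 of 2080 in the thresholded set, where AGCAGC led the first ranking, CCGCCG the second and TTAAAA the third. Among 8-mers AACCCTCG stood at place 4397 of 18431, 19194 of 31026 and 565 of 31894 in the same sets.

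CCCTCG was in 5 of the 20 strongest members and in 6 of the 15 thresholded coding exon peaks, the sets in which it was noticed. In the other 1837 members it was in 5.93% (4.90 to 7.11, exact Clopper-Pearson), against 4.81% of all eligible coding windows. In 1136 of these with a same-exon window 200 bp away it was in 7.04% of summits and 4.14% of flanks. In thresholded intron peaks it was in 6.63%, against 3.50% of windows 350 bp aside, and in subthreshold intron regions in 2.72%, against 2.75% aside. Of the longer spellings, CCCTCGC had the largest difference, with 2.38% of the 1136 summits and 0.616% of their same-exon flanks. ACCCTCG was in 1.232% and 0.7042% of them, and CCCTCGT in 1.585% and 0.8803%. In thresholded intron peaks ACCCTCG was in 3.42%, against 0.218% aside, and CAACCCTCG in 1.24%, against 0.0728% aside. In the 1837 other members ACCCTCG was in 1.03% (0.624 to 1.61), against 0.599% aside. That interval includes the 0.982% of all eligible coding windows. CAACCCTCG was in 1 of these members. All these groups had been looked at before the word was settled on, so none is a held-out test. Capitals mark the word in kon (2L:18491897-18491997), stnB (X:22985935-22986035), CG45095 (3R:25103076-25103176) and Taf4 (3L:16119202-16119302).
kon: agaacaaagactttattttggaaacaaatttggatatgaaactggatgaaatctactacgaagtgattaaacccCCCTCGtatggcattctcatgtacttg
stnB: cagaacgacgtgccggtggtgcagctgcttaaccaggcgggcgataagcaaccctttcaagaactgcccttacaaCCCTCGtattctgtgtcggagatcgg
CG45095: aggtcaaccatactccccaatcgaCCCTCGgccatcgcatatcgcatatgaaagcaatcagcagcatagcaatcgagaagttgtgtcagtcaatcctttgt
Taf4: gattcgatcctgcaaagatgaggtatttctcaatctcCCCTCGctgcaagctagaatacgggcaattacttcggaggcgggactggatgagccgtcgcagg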
